A study of Homo sapiens with 6 samples.

Results

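Tubulin glutamylation enzymes were examined in A549 cells, a human lung carcinoma line, in which CRISPR interference was directed at the surfactant protein B gene SFTPB. The set holds 8 genes, taken by symbol: TTLL11, TTLL1, TTLL4, TTLL5 and TTLL7 (glutamylases), TTLL3 (a glycylase), TTLL12, and AGBL5 (a deglutamylase). All 8 are among the 26485 gene symbols of the count files, and 7 had enough counts to be tested. TTLL11 was chosen by its lower counts with sgRNA #2 in these same libraries and by its partial sgRNA match, so its difference is given as a description and not as a test. The other 7 were listed around it by enzyme family, with their own values also known.

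RNA-seq covered 6 libraries in 2 groups of 3. Both groups came from A549 cells that stably carried lentiviral dCas9-KRAB, a catalytically dead Cas9 fused to a repressor domain and selected with puromycin, and lentiviral rat Nkx2-1, a lung transcription factor whose cells were sorted by GFP. The cells were then transiently transfected with synthetic sgRNA at 50 nM. The sgRNA #2 group received an sgRNA against the first intron of SFTPB, and the sgRNA control group received a non-targeting one. With 1 sgRNA and 1 cell line, effects of sgRNA #2 through its SFTPB site and through any other site cannot be told apart.

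Microtubules carry chains of glutamate on the tails of their tubulins, which enzymes of the tubulin tyrosine ligase-like (TTLL) family add and cytosolic carboxypeptidases remove. Some TTLL enzymes, among them TTLL4, TTLL5 and TTLL7, place the branch-point glutamate, and others, among them TTLL6 and TTLL11, mainly extend the chain. The chains affect how motors, microtubule-associated proteins and severing enzymes such as spastin and katanin act on microtubules. They are dense on the axonemes of cilia, on centrioles and on the mitotic spindle.

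TTLL11 holds a partial copy of the sgRNA #2 target, and the sites are shown here for that reason. Each is written 5′ to 3′ on the strand that carries the PAM (the NGG next to which Cas9 binds), and the last 3 bases are the PAM. In the SFTPB target the capitals mark the 10 bases next to the PAM, and in the TTLL11 sites they mark the unbroken run of matching bases next to the PAM.
SFTPB target of sgRNA #2: gggatgggagGGGAACACCCagg
TTLL11 first exon: ggctgaGGAGGGGAACACCCagg
TTLL11 intron: tggatggggggagagCACCCtgg

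The SFTPB target lies at chr2:85668529-85668551 on the minus strand of GRCh38, 201 bp downstream of an annotated start. The first TTLL11 site lies at chr9:122092911-122092933, also on the minus strand, which is the strand of TTLL11. It matched 14 bases next to the PAM and differed from the sgRNA at 4 positions, G3C, A4T, T5G and G6A, counted from 1 at the 5′ end with the base of the sgRNA first. In the canonical transcript TTLL11-201 it falls in the coding part of exon 1, 386 bp downstream of the start. It is in the coding part of the first exon in 3 of the 9 annotated transcripts, in a first exon outside the coding part in 1, and upstream of the start in 5, the nearest of these starts being 114 bp away. The other TTLL11 site with 4 mismatches (G1T, A9G, G12A and A15G) lies at chr9:121857347-121857369 on the plus strand, in an intron of 4 transcripts, and matched 5 bases next to the PAM.

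No other member had such a site. Within 1000 bp of their annotated starts, the longest run next to a PAM was 7 bases for TTLL1, 6 for TTLL3 and AGBL5, 5 for TTLL5, TTLL7 and TTLL12, and 4 for TTLL4, and these best sites held 6 to 12 mismatches. No site with 4 or fewer mismatches was found elsewhere in these 7 genes or within 2000 bp of them. Of 12979 tested genes with an annotated start, 28 (0.216%) had the 10 PAM-proximal bases of sgRNA #2 followed by NGG within 1000 bp of a start, on either strand, and 11 of the 28 were called lower, beside 0.689% of all 13356 genes tested. The 11 include SFTPB, the intended target, and TTLL11, which was chosen partly for its match. A run of 12 bases or more was found for 3 genes: SFTPB with 20, TTLL11 with 14 and APBB2 with 12. APBB2, which encodes an adaptor that binds amyloid precursor protein, had a log2 fold change of −0.74 and was not called. A match in the sequence is a description and not evidence of binding, and whether dCas9-KRAB was at TTLL11 was not measured.

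**Figure D1:**
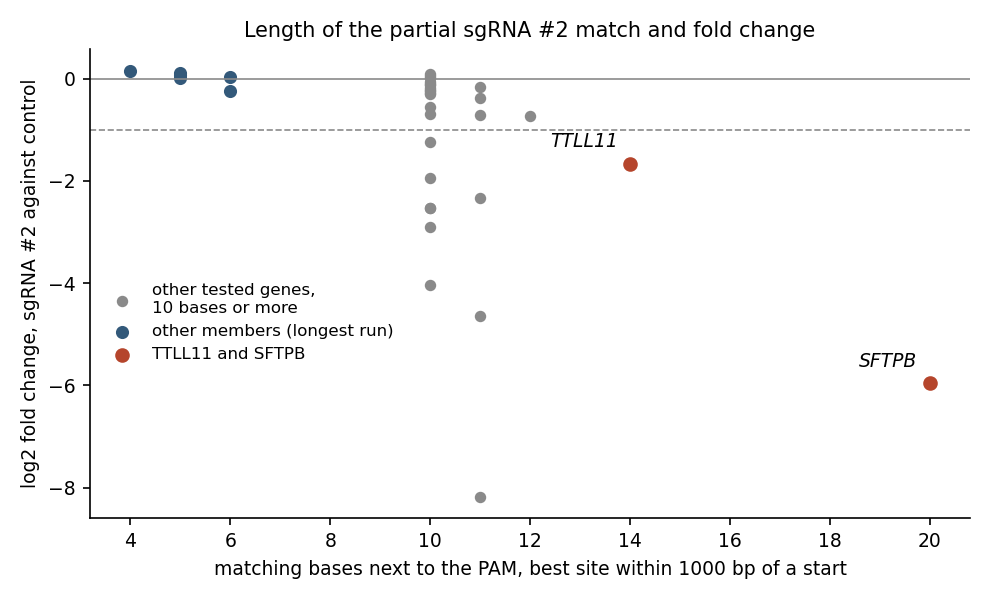
Log2 fold change with sgRNA #2 (y axis) against the number of unbroken matching bases next to the PAM (x axis) for tested genes with a run of 10 or more and for the 6 other tested members. TTLL11, at 14 bases and −1.67, has the longest run after SFTPB, at 20 bases and −5.96, while the other members sit at 4 to 6 bases and near 0; the lowest point, SNPH, rests on 0 to 1 counts with sgRNA #2 and its size is not a bound.

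The targeted gene was checked first. SFTPB, which encodes a surfactant protein that keeps alveoli open, had 2683, 2877 and 3155 counts with sgRNA control and 40, 42 and 49 with sgRNA #2, a log2 fold change of −5.96 (SE 0.101). Libraries held 6047554 to 7584611 gene counts, at which 3 counts, the limit taken here for a count of 0, correspond to 0.396 to 0.496 CPM (gene counts scaled to a common library size). Differences between genes are log2 fold changes of sgRNA #2 against sgRNA control from edgeR, and a gene was called where the change was at least 1 in size with a Benjamini-Hochberg adjusted p under 0.05 over the 13356 genes tested. By that rule 92 genes (0.689% of those tested) were called lower and 4 (0.0299%) higher. The epithelial markers KRT8 (9261 to 14564 counts) and KRT18 were high in each library, EPCAM had 44 to 76 counts and KRT19 0 to 4. CDH1 (E-cadherin) was below the control range in all 3 sgRNA #2 libraries, with a log2 fold change of −0.34 (adjusted p = 0.00728, edgeR's quasi-likelihood test), which is under the fold cut-off.

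TTLL11, a glutamylase that extends glutamate chains, had 51, 57 and 48 counts with sgRNA control, against 20, 13 and 13 with sgRNA #2. Every sgRNA #2 library was below every control library. In CPM the control mean of 7.50 ± 1.03 stood against 2.32 ± 0.466 for sgRNA #2 (SD, n = 3). The log2 fold change was −1.67 (SE 0.242, 95% interval −2.18 to −1.16), which is 3.18-fold lower and leaves 31.4% of the control level. Fewer cells that express TTLL11 and less TTLL11 RNA per cell cannot be told apart in these bulk libraries.

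The difference was moderate beside the other called genes and was read from few counts. Among the 92 genes called lower, TTLL11 was the 43rd by size of change. At the cut-off, PITPNM3 was called with −1.002 and GABRA2 was not with −0.992. Leaving out any 1 library moved the value of TTLL11 between −1.85 and −1.56, and it was called each time. Against the stricter null of a change of no more than 2-fold (glmTreat), it was not called. TTLL11 spans chr9:121815674-122093606 on the minus strand, overlaps no other annotated gene, and its 9 transcripts cover 10852 exonic bases.

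**Figure D2:**
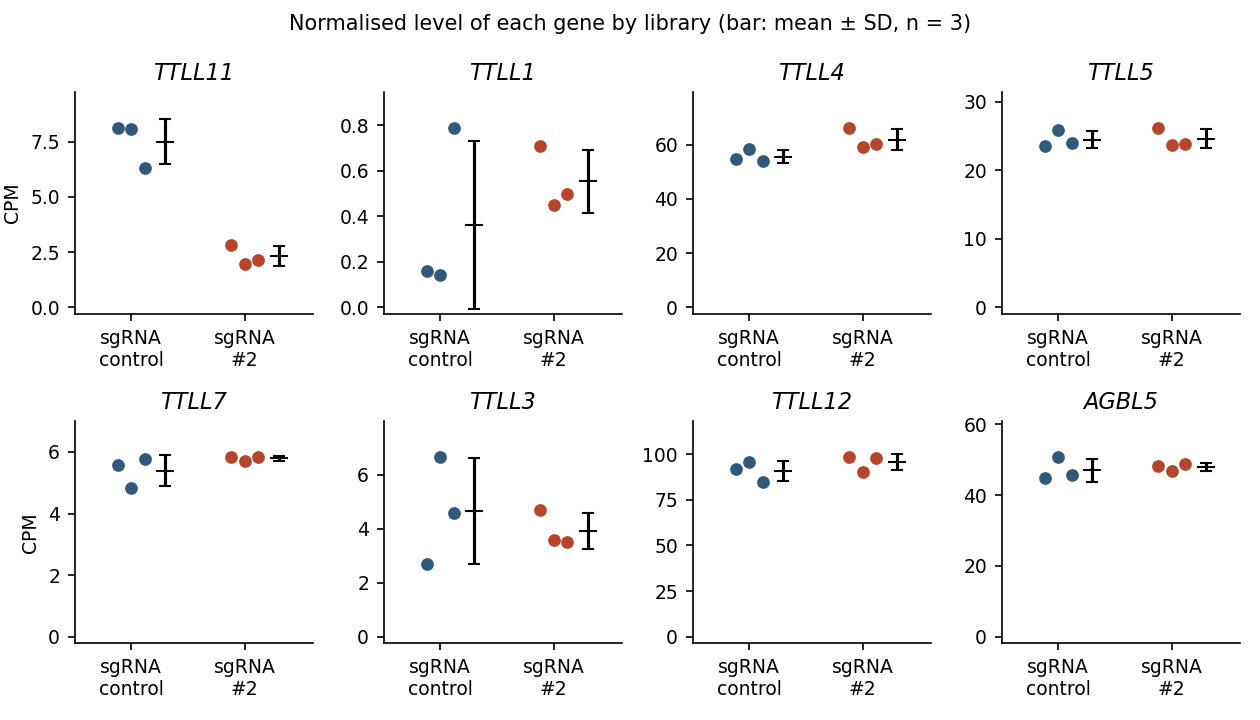
CPM (y axis, one scale for each gene) of the 8 genes in the 3 sgRNA control and the 3 sgRNA #2 libraries, with each library as a point and the mean ± SD beside it. The sgRNA #2 points of TTLL11 lie at 1.95 to 2.85 CPM, all below the control points at 6.31 to 8.12 CPM, and the groups overlap for the other genes except TTLL4, whose sgRNA #2 points are higher.

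None of the other 6 tested members was called in either direction, against 0.689% of tested genes called lower and 0.0299% called higher. Their log2 fold changes ran from −0.25 to 0.16, and the lowest end of any of their 95% intervals was −0.86. Their median was 0.05, beside 0.003 over all 13356 genes tested.

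TTLL4, which starts glutamate chains on tubulin and also acts on other proteins, had 343, 411 and 409 counts with sgRNA control and 465, 394 and 361 with sgRNA #2. After scaling, 53.8 to 58.2 CPM stood against 59.2 to 66.1 CPM, so every sgRNA #2 library was above every control library, as for 6.77% of tested genes. The log2 fold change was 0.16 (95% interval −0.01 to 0.33) and did not pass the test. TTLL4 (chr2:218710835-218755416, plus strand) overlaps no other annotated gene.

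TTLL5, which places the branch-point glutamate, had 148, 183 and 182 counts with sgRNA control and 184, 158 and 143 with sgRNA #2. The groups overlapped, at 24.5 ± 1.27 and 24.6 ± 1.39 CPM (SD, n = 3), and the log2 fold change was 0.01 (95% interval −0.22 to 0.23). TTLL5 (chr14:75633625-75955079, plus strand) overlaps FLVCR2 and IFT43 on its own strand and ERG28 on the other. Reads in shared exons may have been left out of the counts as ambiguous.

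TTLL7, a glutamylase with a preference for beta-tubulin, had 35, 34 and 44 counts with sgRNA control and 41, 38 and 35 with sgRNA #2. The log2 fold change was 0.10, and with so few counts its 95% interval ran from −0.32 to 0.52. TTLL7 lies at chr1:83865024-83999150 on the minus strand.

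TTLL1, the catalytic subunit of a glutamylase complex of neuronal and ciliated cells, was close to the limit of detection. Its counts were 1, 1 and 6 with sgRNA control and 5, 3 and 3 with sgRNA #2, which sum to 8 and 11. It did not reach 10 counts in 3 libraries and was not tested, and a change of the size seen for TTLL11 was not detectable for it at this depth. TTLL1 (chr22:43039516-43089419, minus strand) overlaps its antisense gene TTLL1-AS1, and the strand setting of the counting is not given in the sources used here.

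TTLL3, which adds glycine in place of glutamate, had 17, 47 and 35 counts with sgRNA control and 33, 24 and 21 with sgRNA #2. The control libraries spanned the whole range of the sgRNA #2 libraries. The log2 fold change was −0.25 with a 95% interval from −0.86 to 0.36, the widest of the tested members. TTLL3 (chr3:9808086-9855138, plus strand) shares exons with the readthrough gene ARPC4-TTLL3 and overlaps RPUSD3, so its counts are uncertain.

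TTLL12, a family member for which no glutamylase activity is established, was the most highly expressed of the 8. It had 577, 674 and 646 counts with sgRNA control and 691, 602 and 588 with sgRNA #2, and the groups overlapped after scaling. The log2 fold change was 0.07 (95% interval −0.08 to 0.23). TTLL12 lies at chr22:43166622-43187134 on the minus strand and overlaps no other annotated gene.

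AGBL5, also called CCP5, removes the branch-point glutamate and so works against the glutamylases. It had 281, 358 and 347 counts with sgRNA control and 339, 311 and 293 with sgRNA #2. The groups overlapped, at 47.0 ± 3.23 and 47.9 ± 1.08 CPM (SD, n = 3), and the log2 fold change was 0.03 (95% interval −0.16 to 0.21). AGBL5 (chr2:27042364-27070622, plus strand) overlaps OST4 and AGBL5-AS1 on the other strand.

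**Figure D3:**
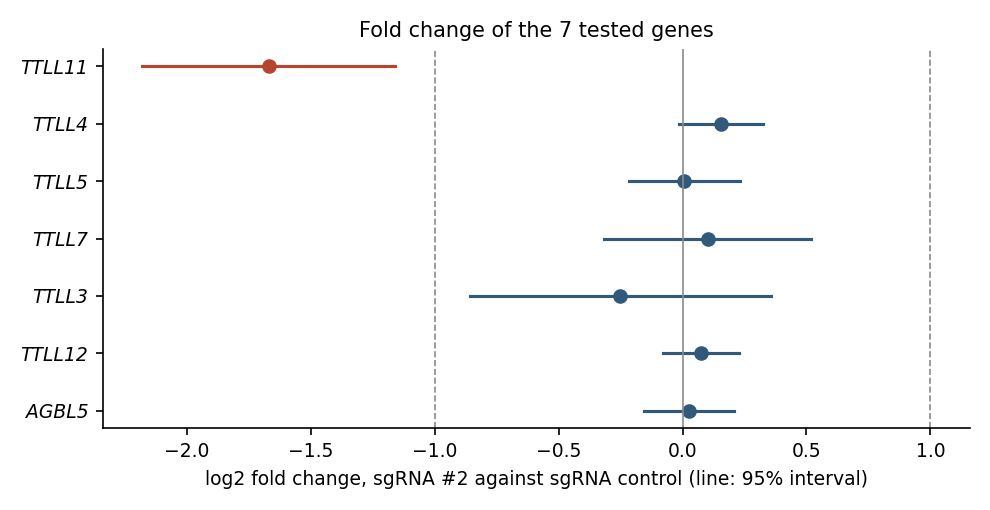
Log2 fold change of sgRNA #2 against sgRNA control (x axis) for the 7 tested genes, with the 95% interval as a line and the fold cut-offs dashed. TTLL11, chosen by its lower counts in these libraries, is at −1.67, and the intervals of the other 6 include 0.

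Levels of the members were compared with one another only after division by exonic length, as CPM per kilobase of annotated exon (RPKM). With sgRNA control the order was TTLL12 (19.6), AGBL5 (8.90), TTLL4 (7.22), TTLL5 (2.00), TTLL11 (0.691), TTLL7 (0.511), TTLL3 (0.447) and TTLL1 (0.194). Neighbours in this order did not overlap between libraries, except TTLL7 with TTLL3 and TTLL3 with TTLL1. TTLL11 was thus at a low level in the control cells. The spread of libraries does not cover error in the exonic lengths, on which the order also rests. The annotation behind the counts is not given, and which transcripts the cells express was not determined. In CPM, which is not divided by length, 19.2% of tested genes had a lower control mean.

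With sgRNA #2, TTLL11 was at 0.214 RPKM, below TTLL7 (0.549) and TTLL3 (0.378). Its 3 libraries, at 0.180 to 0.262 RPKM, then overlapped those of TTLL1 at 0.241 to 0.381 RPKM. Of the summed RPKM of TTLL1, TTLL4, TTLL5, TTLL7 and TTLL11, TTLL11 made up 7.21%, 6.79% and 5.54% with sgRNA control, against 2.20%, 1.70% and 1.85% with sgRNA #2. The other 4 glutamylases together summed to 9.63 to 10.2 RPKM with sgRNA control and 10.4 to 11.7 with sgRNA #2. Most of that sum was TTLL4, whose difference did not pass the test (log2 fold change 0.16, adjusted p = 0.509, edgeR). The sum itself was not tested. Whether tubulin glutamylation itself changed was not measured by RNA-seq.

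Of 53 other genes of the tubulin code that were listed, 52 are in the files and 40 were tested, and 0 of the 40 were called lower or higher by edgeR. An unadjusted p under 0.05 was found for 3 of the 40, where 11.1% of all tested genes had one, and an adjusted p under 0.05 for 0, where 2.69% had one. DESeq2 and the other alternative fits also called none of them. All 3 sgRNA #2 libraries were below all 3 controls for 4 of the 40, against 8.83% of tested genes, and above them for none. The median log2 fold change of the 40 was −0.03.

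**Figure D4:**
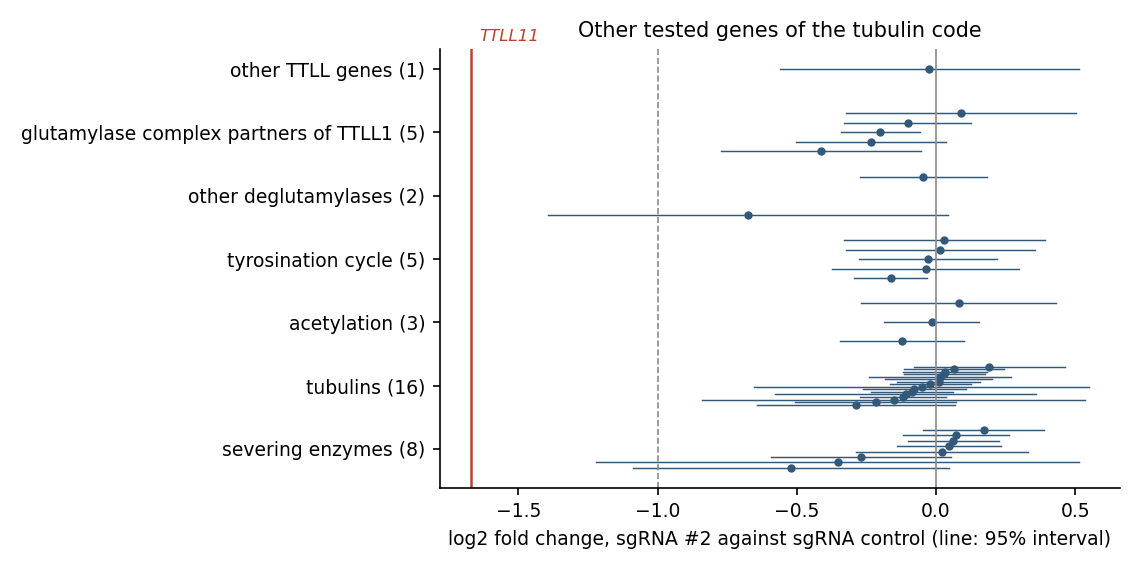
Log2 fold change (x axis, 95% interval as a line) of the 40 tested genes of the tubulin code outside the set, by list, with the number tested in parentheses and the value of TTLL11 as a red line. All 40 points lie between −0.68 and 0.19, to the right of TTLL11 at −1.67.

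Among the remaining TTLL genes, TTLL6, an elongating glutamylase like TTLL11, had 31, 51 and 46 counts with sgRNA control and 28, 57 and 33 with sgRNA #2. Its log2 fold change was −0.02 (95% interval −0.56 to 0.51). TTLL9 and TTLL10 were at 0 counts in each library, TTLL2 had 0 to 3 and TTLL13P, the older symbol of the elongating enzyme TTLL13, had 2 to 5. TTLL6 and TTLL11 were thus the elongating enzymes with enough counts to be tested. TTLL8, also listed, is not among the gene symbols counted.

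All 5 partners of TTLL1 in its glutamylase complex were tested. TPGS2 had 700, 772 and 837 counts with sgRNA control and 661, 617 and 610 with sgRNA #2, all of them lower after scaling. Its log2 fold change was −0.20 (SE 0.0671, adjusted p = 0.178, edgeR). TPGS1 had 130, 141 and 141 counts against 133, 101 and 59, a log2 fold change of −0.41 (SE 0.171, adjusted p = 0.33, edgeR), and without the third sgRNA #2 library it was −0.21. NICN1 (−0.23), C11orf49 (−0.10) and LRRC49 (0.09) did not pass the test either. With the replicate number as a block in edgeR, TPGS1 and TPGS2 had adjusted p-values of 0.00498 and 0.00551, and neither reached the fold cut-off. In that fit 10.0% of all tested genes had an adjusted p under 0.05. The block fit took each gene's variance wholly from a trend over all genes, which the main fit did only in part. The spread of TPGS1 between its own libraries therefore did not enter its block p-value.

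Tyrosination is the other cycle on the tubulin tail, in which TTL restores the terminal tyrosine that vasohibins and MATCAP1 remove. TTL had 1259, 1364 and 1474 counts with sgRNA control and 1277, 1145 and 1028 with sgRNA #2, below the controls in all 3 libraries after scaling. Its log2 fold change was −0.16 (SE 0.0623), with an adjusted p of 0.274 by edgeR and of 0.0100 with the block. In the block fit 10.0% of all tested genes had an adjusted p under 0.05, and each variance came wholly from the trend over all genes. The removing enzymes VASH1 (−0.04) and KIAA0895L, the older symbol of MATCAP1 (−0.03), were near 0.

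The deglutamylases beside AGBL5 were AGTPBP1, with 218 to 337 counts and a log2 fold change of −0.05, and AGBL3, with 16, 13 and 24 counts against 8, 13 and 10. AGBL3 had a log2 fold change of −0.68 (95% interval −1.39 to 0.04). AGBL1 and AGBL4 were at 0 counts and AGBL2 was below the filter. Of the acetylation enzymes, SIRT2 (−0.12) and HDAC6 (−0.02) are deacetylases and ATAT1 (0.08) is the acetyltransferase, and none passed the test.

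The tubulins are the substrates of these enzymes. Of 21 tubulin genes 16 were tested, 3 were at 0 counts in each library, and the log2 fold changes of the 16 ran from −0.29 to 0.19. TUBB, the most abundant, had 11391 to 12055 counts with sgRNA control and 10494 to 12424 with sgRNA #2, a log2 fold change of 0.01 (SE 0.0701). TUBB2A (−0.29) and TUBB3 (−0.12) had the smallest p-values of the list and did not pass. Of the 8 severing enzymes, which read glutamylated tubulin, FIGNL2 (−0.52, 95% interval −1.09 to 0.05) and KATNA1 (−0.27) were below the controls in all 3 libraries without passing the test, and FIGNL1, the most abundant, was at 0.05.

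Markers of ciliated cells, whose axonemes are rich in glutamylated tubulin, were mixed. TEKT1 and DNAI2 had 0 counts in each library, FOXJ1 0 to 2 and DNAI1 0 to 1. Of the 11 markers 4 passed the filter and none was called: DNAH5 had 76 to 122 counts (log2 fold change 0.07), CCDC39 40 to 62 (0.00), MCIDAS 20 to 56 (0.00) and CAPS 24 to 44 (0.03). The summed level of the 11 was 32.2 to 36.3 CPM with sgRNA control and 32.4 to 37.3 CPM with sgRNA #2. Markers of blood (PTPRC, CD74 and CD3E) and endothelial cells (PECAM1, CDH5 and VWF) had 0 to 3 counts. Of the fibroblast markers COL1A1 had 36 to 58 counts (log2 fold change 0.09), LUM 0 to 7, COL3A1 0 to 1 and DCN 0.

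Within 500 kb of its start, 14 genes of the files have an annotated start and 5 were tested, and edgeR called none of them lower or higher, beside 0.689% and 0.0299% of all tested genes. An unadjusted p under 0.05 was found for 0 of the 5, beside 11.1% of all tested genes, so that 5 genes say little about the region, and no alternative fit, DESeq2 among them, called one. On one side the nearest tested gene was NDUFA8, a subunit of mitochondrial complex I whose start is 66.5 kb away. It had 365, 441 and 482 counts with sgRNA control and 435, 472 and 397 with sgRNA #2, a log2 fold change of 0.11 (95% interval −0.06 to 0.28). On the other side it was DAB2IP, a Ras GTPase-activating protein 442 kb away, with 489, 610 and 594 counts against 534, 450 and 441. DAB2IP was below the controls in all 3 libraries after scaling, with a log2 fold change of −0.16 (95% interval −0.32 to 0.00) that did not pass the test.

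**Figure D5:**
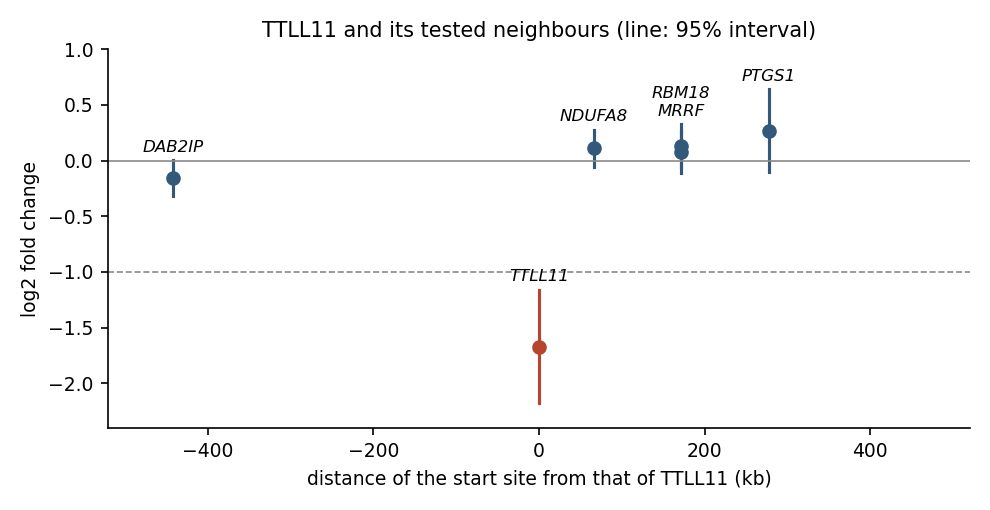
Log2 fold change (y axis, 95% interval as a line) of TTLL11 and its 5 tested neighbours against the distance between start sites in kb (x axis). TTLL11 stands at −1.67 and the neighbours between −0.16 and 0.27.

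By the profile over the 6 libraries, the genes most like TTLL11 were TGFB1I1, CD82, C6orf132, KRT16P2 and ZNF511. Likeness was the root mean square difference of log2(CPM + 0.5) after each gene's control mean was subtracted, and it was 0.113 for TGFB1I1 and 0.178 to 0.192 for the other 4. TGFB1I1 had 148, 192 and 161 counts with sgRNA control and 63, 53 and 49 with sgRNA #2. Their log2 fold changes ran from −1.77 for CD82 to −1.42 for C6orf132, and the choice by profile fixes that direction.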

How the data were processed

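RNA-seq of A549 cells was analysed in 6 libraries, 3 for each sgRNA, grouped by the treatment label. The deposited files hold raw read counts for each gene symbol, which the authors obtained from htseq-count. The submitters' processing notes also name Trim Galore, FastQC, Bowtie2 2.3.3.1, SAMtools, Picard and hg38, and the annotation and strand setting are not given in the sources used here. Reads without a feature (19.7% to 21.1% of the reads in a file) and ambiguous reads (2.61% to 2.75%) were left out, so overlapping genes lose reads. The study describes the 3 libraries of each group as biologically independent. Replicates differed by more than counting error (chi-square per degree of freedom 2.61 to 3.43).

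Genes that reached 10 counts in 3 or more libraries were fitted with edgeR 4.0.16 in R 4.3.3 (TMM, quasi-likelihood test, all 6 libraries, no covariate), and the step was tested on simulated data. SE is the size of the change over the square root of F. Same-numbered libraries of the 2 groups deviated together (r = 0.269, 0.287 and 0.291), so a fit with the replicate number as a block was an alternative, as were DESeq2 1.42.0, other scalings and filters, glmTreat and leaving out each library. Symbols were matched to GENCODE 44 (24237 of 26485, 1329 by an older symbol), CPM used TMM-scaled totals except for the limit of 3 counts, and RPKM used the union of annotated exons. The sgRNA sequence came from the study's supplementary table and was searched in GRCh38.

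The members and lists were chosen with earlier results of these data known. Genes named are all members, SFTPB, the nearest tested gene on each side of TTLL11, the 5 genes most like it, and of each list of tubulin code genes those called, the 2 with the smallest p and the most abundant 1. Others named (APBB2, SNPH, PITPNM3, GABRA2, cell type markers, genes at 0 counts and further list members) were chosen after their values were seen.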

Additional observations from a re-analysis of the deposited data

How the results depend on the processing

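TTLL11 was called in 12 of 13 alternative fits, with log2 fold changes from −1.85 to −1.56, and not by glmTreat against a 2-fold null (−1.67, adjusted p = 0.559). The other 6 tested members were called in 0 of 78 alternative values, and the 40 listed genes and 5 neighbours in none. Leaving out 1 library at a time turned the sign of small values: AGBL5 ranged from −0.0081 to 0.084, TTLL3 from −0.50 to 0.087 and TTLL5 from −0.038 to 0.051. TTLL7 (0.027 to 0.159), TTLL12 (0.027 to 0.115) and TTLL4 (0.107 to 0.192) kept their sign. The values past 0 came without control library 1 for AGBL5 (−0.0081), without control library 2 for TTLL3 (0.087), and without control library 1 (−0.019), control library 3 (−0.012) or sgRNA #2 library 1 (−0.038) for TTLL5.

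Adding the replicate block gave 114 lower and 8 higher calls, TTLL11 was at −1.69, and no call of a member, listed gene or neighbour changed. That fit took each gene's variance wholly from a trend over all genes. Genes called lower numbered 60 when 10 counts were required in every library and 27 by glmTreat, and 60 to 86 with 1 library left out. The lowest, 60, came without control library 2. Genes called higher numbered 9 without a count filter, 0 by glmTreat and 3 to 9 with 1 library left out. They numbered 8 without control library 1 and 9 without sgRNA #2 library 3. With a PAM-proximal run of 8 or 12 bases, or a window of 500 or 2000 bp, TTLL11 was each time the member with a match. Depth limits TTLL1, TTLL3 and TTLL7. The intervals are for the difference between the groups, not for the spread of libraries, and rest on 3 libraries a group.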
